A study of Mus musculus with 2 samples.

Results

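The Serpin family was examined in RNA-seq libraries of small hepatocytes (SHs) and mature hepatocytes (MHs) of the mouse. The members were all gene symbols that consist of Serpin, a clade letter from a to i, a number and, where present, a further letter. There were 62 such symbols among the 43280 counted, namely 24 of clade a, 27 of clade b, 3 of clade e, 2 each of clades f and i, and 1 each of clades c, d, g and h. Of these, 36 had 10 or more reads over both libraries and are described with a ratio, 8 had 1 to 9 reads, and 18 had no read in either library. Serpin symbols with a ps suffix were not members, although 2 members, Serpina3h and Serpinb10, are also annotated as pseudogenes.

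Both kinds of cell came from the livers of the same C57BL6 mice, which the labels give as 20 weeks old, after collagenase perfusion and without any treatment or genetic change. There was 1 library per kind, and the methods describe 3 mice. MHs were pelleted by a slow spin, and SHs by a faster spin of its supernatant. A Percoll step removed dead cells from both fractions. No sorting followed for MHs. SHs, which the labels describe as intrinsic hepatocyte progenitors, were purified further by FACS as ICAM-1+ cells lacking CD31, CD45 and EpCAM. The counted reads numbered 16979136 in MHs and 42356444 in SHs, and the 10 hepatocyte markers examined had log2 ratios with a median of 0.03, none of them at least 2-fold apart. Each count was divided by the counted reads of its library to give reads per 1000000 counted reads (RPM). Ratios are on the log2 scale, SHs over MHs, with 0.5 reads added to each count. The range in brackets after a ratio is its 95% Clopper-Pearson interval. It covers counting error only, since neither kind of cell had a replicate and the reads carried no molecular identifiers. No test between the kinds of cell was therefore possible. A member is called lower or higher where its ratio was at least 2-fold and its whole interval lay on that side of 0. A gene with 3 reads, taken as the limit of detection, stood at 0.177 RPM in the MH library and at 0.0708 RPM in the SH library.

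Serpins are proteins of a shared fold, most of which trap a serine protease. An exposed stretch near the end of the protein, the reactive centre loop, is offered to the protease as bait, and cutting it locks both proteins into a dead complex. The loop therefore sets which protease is bound. Hepatocytes secrete most of the serpins of blood plasma, which restrain neutrophil elastase, thrombin, plasmin and the proteases of complement and of the contact system. A few members have other duties, such as carrying hormones or, in the case of HSP47, folding collagen.

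The highest levels in both libraries came from recently duplicated genes of clade a on chromosome 12, and the members of these groups differ from each other more often at the loop than over the coding sequence as a whole. The coding sequences of Serpina1a to Serpina1e, the mouse genes of alpha-1-antitrypsin, were 91.4% to 96.7% identical over 10 pairs, with a median of 96.3%. Over 60 bases that begin at the conserved hinge of the loop, in GENCODE M21 transcripts on the mm10 genome, they were 86.7% to 90% identical to Serpina1e. The stretches are shown because they separate genes whose reads are otherwise hard to tell apart. Capitals mark bases that differ from Serpina1e, and all 5 lie within 1 exon on the minus strand, at chr12:103853774-103853833, chr12:103728341-103728400, chr12:103895111-103895170, chr12:103763779-103763838 and chr12:103947117-103947176.
Serpina1a: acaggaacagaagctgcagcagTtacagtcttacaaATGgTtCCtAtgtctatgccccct
Serpina1b: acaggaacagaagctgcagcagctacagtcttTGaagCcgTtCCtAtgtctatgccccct
Serpina1c: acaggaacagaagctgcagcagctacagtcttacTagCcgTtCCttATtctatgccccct
Serpina1d: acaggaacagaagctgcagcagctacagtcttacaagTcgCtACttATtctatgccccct
Serpina1e: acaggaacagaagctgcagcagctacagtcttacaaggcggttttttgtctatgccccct

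The first 22 bases, the hinge, were the same in all 5 genes, and the 6 to 8 differences of each gene fell between base 23 and base 48. All of the codons that differed from Serpina1e, 4 to 6 per gene, coded for another residue.

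The Serpina3 genes, relatives of alpha-1-antichymotrypsin, were less alike. Over 28 pairs of 8 genes, their coding sequences were 69.2% to 91.1% identical, with a median of 78.8%. The highest value was that of Serpina3k and Serpina3m. The same 60 bases are shown for the 6 genes in which the hinge was found, since they show how far the loops of neighbouring genes have moved apart. Capitals mark bases that differ from Serpina3k. The stretches lie at chr12:104345266-104345325, chr12:104393766-104393825, chr12:104413445-104413504, chr12:104220242-104220301 and chr12:104241069-104241128 on the plus strand and, for Serpina3c, at chr12:104147331-104147390 on the minus strand.
Serpina3k: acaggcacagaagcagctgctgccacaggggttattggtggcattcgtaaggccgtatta
Serpina3m: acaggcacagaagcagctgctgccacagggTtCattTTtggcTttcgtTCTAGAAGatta
Serpina3n: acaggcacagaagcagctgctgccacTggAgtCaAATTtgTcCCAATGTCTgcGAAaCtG
Serpina3c: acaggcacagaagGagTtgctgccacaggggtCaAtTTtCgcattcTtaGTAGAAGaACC
Serpina3f: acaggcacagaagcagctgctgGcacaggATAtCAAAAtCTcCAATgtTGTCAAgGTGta
Serpina3g: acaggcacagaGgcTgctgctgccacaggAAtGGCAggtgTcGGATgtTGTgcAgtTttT

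Serpina3m was 78.3% identical to Serpina3k in this stretch and 91.1% over the coding sequence. For Serpina3n the values were 63.3% and 82.7%, for Serpina3c 70% and 85.2%, and for Serpina3f 60% and 72.6%. Serpina3g was 68.3% identical to Serpina3k in the loop, and its annotated reading frame was too short for a comparison over the whole coding sequence.

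**Figure D1:**
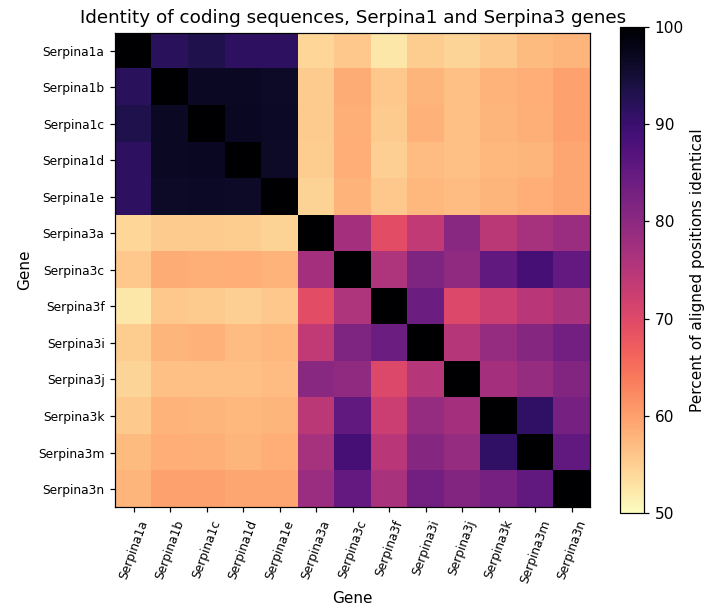
Identity of aligned coding sequences between pairs of Serpina1 and Serpina3 genes, in percent, with 1 gene per row and column and darker colours for higher identity. The 5 Serpina1 genes form a block of 91.4% to 96.7%, the Serpina3 genes a looser block of 69.2% to 91.1%, and pairs across the blocks lie between 52.5% and 59.8%.

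Serpin transcripts took 2.86% of the counted reads of MHs and 2.65% of those of SHs, with a ratio of -0.11 (-0.12 to -0.11). Without Serpina3k, the member with the most reads, the shares were 1.92% and 1.90%, with a ratio of -0.02. The family as a whole therefore differed little between the libraries, and most of that difference was carried by 1 gene. The 5 expressed Serpina1 genes and Serpina3k together held 79.7% of the serpin reads in MHs and 79.1% in SHs.

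**Figure D2:**
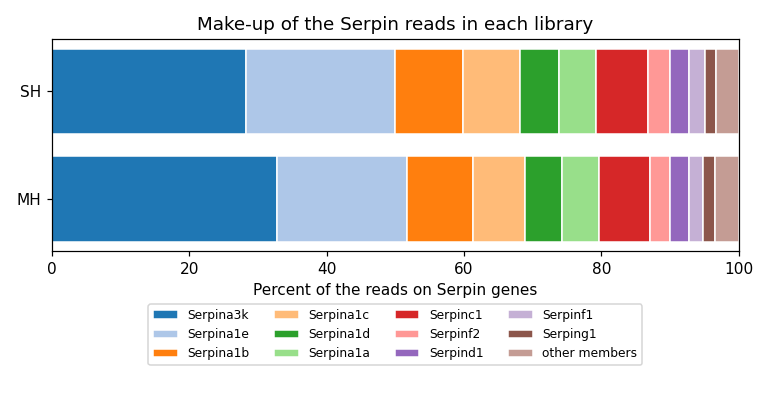
Make-up of the serpin reads in each library, in percent of the reads on all serpin genes. The Serpina3k section is 32.8% of the bar in MHs and 28.3% in SHs, and the Serpina1e section 18.9% in MHs and 21.7% in SHs, whereas the sections of the other named genes differ by less than 1 percentage point.

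The Serpina1 genes are the mouse copies of the gene of alpha-1-antitrypsin, an inhibitor of neutrophil elastase in plasma. Their loops differ, and which of the copies inhibit elastase was not tested. Serpina1e had 91640 reads in MHs and 243374 in SHs, or 5397 and 5746 RPM, a ratio of 0.09 (0.08 to 0.10). Serpina1b had 46312 and 111561 reads, with a ratio of -0.05 (-0.07 to -0.03). Serpina1c had 37134 and 91648 reads, with a ratio of -0.02 (-0.03 to 0.00), and its interval included 0. For Serpina1d the counts were 26168 and 63918, with a ratio of -0.03 (-0.05 to -0.01). Serpina1a had 26039 and 60059 reads, with a ratio of -0.11 (-0.13 to -0.09). Serpina1e was thus the only gene of the 5 with a ratio above 0, although scaling by a total that leaves out the 10 most-read genes also put Serpina1c (0.016) and Serpina1d (0.0011) just above it. As scaled here, all 5 lay within 0.12 of 0.

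The summed reads of the Serpina1 genes were 1.34% of the counted reads in MHs and 1.35% in SHs, with a ratio of 0.01 (0.00 to 0.02). Within this sum, Serpina1e took 40.3% in MHs and 42.7% in SHs, while Serpina1a took 11.5% and 10.5%. These genes share long stretches. The share of 100-base windows found in another annotated gene was 58.5% for Serpina1c, 49.9% for Serpina1a, 29.3% for Serpina1d, 26.4% for Serpina1b and 18.2% for Serpina1e. Reads from such windows cannot be assigned to 1 gene, and although the methods cap the hits per read in their alignment, how such reads entered the deposited counts is not given in the sources used here. The split within the group depends on that rule, whereas the sum depends on it much less. In addition, the annotated span of Serpina1b encloses Serpina1d and the pseudogene Gm8893, which had 3566 and 8608 reads, with no shared exon base. The remaining gene of the group, Serpina1f, had no read in either library, which allows up to 0.177 RPM in MHs and 0.0708 RPM in SHs.

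Serpina3k, known as contrapsin, was the serpin with the most reads in both libraries. It had 159231 reads in MHs and 316760 in SHs, or 9378 and 7478 RPM, a ratio of -0.33 (-0.34 to -0.32). Levels of different genes were compared per length, as reads per kilobase of merged exons per 1000000 counted reads (RPKM). On this scale Serpina3k stood above Serpina1e, with 4559 RPKM against 3338 in MHs and 3636 against 3553 in SHs. It ranked 54 among all genes in MHs and 69 in SHs, while Serpina1e ranked 79 and 74. Divided by the length of the transcript with the longest coding sequence, Serpina1e reached 4168 RPKM in MHs and 4437 in SHs, while Serpina3k stayed at 4559 and 3636. Serpina3k was thus above Serpina1e in MHs under both lengths, whereas in SHs the order turned with the length.

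The other Serpina3 genes had far fewer reads, and most of their ratios were also under 0. Serpina3m had 4330 reads in MHs and 8987 in SHs, with a ratio of -0.27 (-0.32 to -0.21). Serpina3n, an inducible member that is known to inhibit granzyme B, had 3970 and 8644 reads, with a ratio of -0.20 (-0.25 to -0.14). Both had intervals under 0, and neither reached a 1.5-fold difference. The exons of Serpina3m share 60 bases with those of Serpina3k on the same strand. Of its 100-base windows, 6.09% were found in another annotated gene. The part of Serpina3k reads in the Serpina3m value was not tested. Serpina3g had 94 and 163 reads, with a ratio of -0.53 (-0.90 to -0.14), the lowest among members with 200 or more reads. The intervals of Serpina3f (7.36 and 6.04 RPM, ratio -0.29), Serpina3c (91 and 187 reads, ratio -0.28) and the annotated pseudogene Serpina3h (84 and 202 reads, ratio -0.06) included 0.

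Below 200 reads, the Serpina3 genes pointed in different ways. Serpina3j, with 8 reads in MHs and 6 in SHs, was called lower at a ratio of -1.71 (-3.54 to -0.02). Serpina3i had 3 and 23 reads, with a ratio of 1.43 (-0.11 to 3.999) that included 0. Serpina3a had 6 and 15 reads, a ratio of -0.07 (-1.44 to 1.66). Serpina3b had 1 and 7 reads and stayed under the minimum of 10. Summed over the 11 genes, Serpina3 reads were 0.989% of the counted reads in MHs and 0.791% in SHs, with a ratio of -0.32 (-0.33 to -0.31). The sum without Serpina3k gave -0.23 (-0.27 to -0.20). The share of Serpina3 genes in the serpin reads was 34.6% in MHs and 29.9% in SHs, while that of the Serpina1 genes was 46.9% and 50.9%.

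Clade a lies in 1 cluster apart from Serpina7. The cluster spans chr12:103614786-104414329 of mm10 and holds 23 members, of which 21 had 10 or more reads. From its start it runs through Serpina10 and Serpina6 to the Serpina1 genes, then through Serpina11, Serpina9, Serpina12 and Serpina5 to the Serpina3 genes. Ratios of neighbours with 200 or more reads stayed between -0.53 and 0.44 along it.

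**Figure D3:**
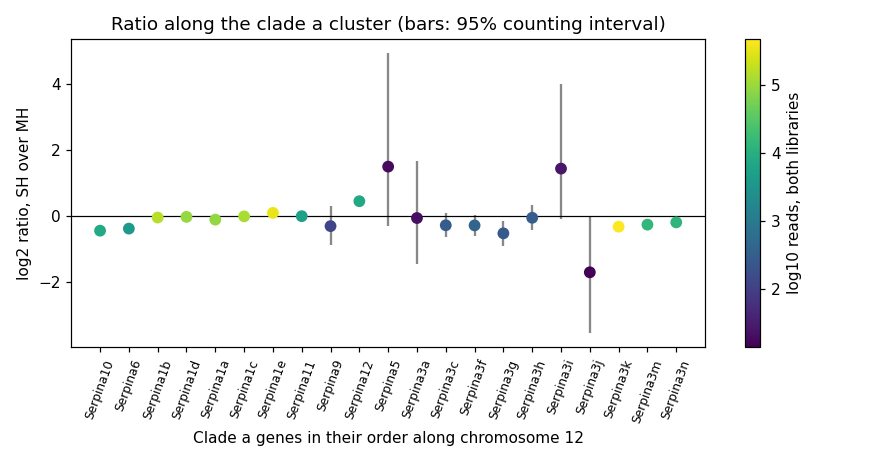
Log2 ratios, SHs over MHs, of the 21 members of the clade a cluster with 10 or more reads, in their order along chromosome 12 and not to scale. Points are ratios, bars are 95% counting intervals, and colour gives the log10 of the reads over both libraries. Serpina12 has the highest ratio, 0.44, among members with 200 or more reads, and the widest bars belong to members with 14 to 26 reads.

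Serpina12 encodes vaspin, a secreted protein first described in adipose tissue. It had 1632 reads in MHs and 5536 in SHs, or 96.1 and 130.7 RPM, a ratio of 0.44 (0.36 to 0.52). This was the highest ratio among members with 200 or more reads. Serpina10 encodes an inhibitor of factor Xa that works together with protein Z. It had 2718 and 4972 reads, with a ratio of -0.45 (-0.52 to -0.38). Serpina6 encodes corticosteroid-binding globulin, which carries glucocorticoids in plasma. It had 1320 and 2522 reads, with a ratio of -0.39 (-0.48 to -0.29). Serpina11, between the Serpina1 genes and Serpina12, had 1504 and 3728 reads, with a ratio of -0.01 (-0.10 to 0.08). Its exons share 669 bases with Gm28577 on the same strand, and 42.4% of its 100-base windows were found in another annotated gene. The part of such reads in the Serpina11 ratio was not tested. Genes within the same cluster thus lay on both sides of 0 beyond counting error. Serpina5, the protein C inhibitor, had 2 and 17 reads, with a ratio of 1.49 (-0.31 to 4.93), and Serpina9 had 39 and 79 reads, with a ratio of -0.31 (-0.87 to 0.29). Neither interval excluded 0.

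Serpina7 encodes thyroxine-binding globulin, which carries thyroid hormone in plasma, and lies on the X chromosome at chrX:139079257-139085236. It had 110 reads in MHs and 66 in SHs, although the SH library held 2.49 times as many counted reads. Its level was 6.48 RPM in MHs and 1.56 in SHs, 4.15-fold lower, with a ratio of -2.05 (-2.52 to -1.60). Both hormone carriers of the family were thus lower in SHs beyond counting error, but Serpina7 alone was called. Among the called members it had the most reads.

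The plasma serpins outside clade a differed little. Serpinc1 encodes antithrombin, the heparin-activated inhibitor of thrombin and factor Xa. It had 36170 reads in MHs and 85418 in SHs, or 2130 and 2017 RPM, a ratio of -0.08 (-0.10 to -0.06). Serpind1 encodes heparin cofactor II, a further thrombin inhibitor. It had 13372 and 31720 reads, with a ratio of -0.07 (-0.10 to -0.04). Serpinf2 encodes alpha-2-antiplasmin, the inhibitor of plasmin. It had 13833 and 35516 reads, with a ratio of 0.04 (0.01 to 0.07). Serpinf1, which encodes the antiangiogenic factor PEDF, had 9949 and 25698 reads, with a ratio of 0.05 (0.02 to 0.08). The widest difference in this group was that of Serping1, the C1 inhibitor of complement and contact activation. It had 8450 and 18330 reads, or 498 and 433 RPM, and its ratio was -0.20 (-0.24 to -0.16). Together these 5 genes held 0.482% of the reads of MHs and 0.464% of those of SHs, with a ratio of -0.05 (-0.06 to -0.04).

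Per length, the level of Serpinc1 depended on the exon length taken. It came to 249 RPKM in MHs over its merged exons and to 429 over the transcript with the longest coding sequence. Its ratio between the libraries does not depend on length. Exons of Serpinc1 also overlapped those of Zbtb37 on the opposite strand over 2942 bases, but Zbtb37 had only 51 and 155 reads.

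In clade e, Serpine2 encodes protease nexin-1, a cell-surface inhibitor of thrombin and urokinase. It had 460 reads in MHs and 1007 in SHs, with a ratio of -0.19 (-0.35 to -0.03). Serpine3 had no read.

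Clade b serpins mostly stay inside the cell and guard it against its own or incoming proteases. Of 27 members, 6 had 10 or more reads and 15 had none, and their sum was 14 RPM in MHs and 13.4 in SHs. Serpinb1a, an inhibitor of neutrophil proteases, had 103 reads in MHs and 199 in SHs, with a ratio of -0.37 (-0.72 to -0.01). Serpinb9, the inhibitor of granzyme B, had 77 and 217 reads, a ratio of 0.17 (-0.21 to 0.57). Serpinb8 was the only member called higher. It had 11 reads in MHs and 70 in SHs, or 0.648 and 1.65 RPM, a ratio of 1.30 (0.42 to 2.42). Serpinb6a, known to inhibit cathepsin G, was called lower, with 30 and 37 reads and a ratio of -1.02 (-1.75 to -0.27). Its exons overlap those of Nqo2 over 762 bases and those of Ripk1 over 241 bases, both on the opposite strand. Nqo2 had 1239 and 3137 reads and Ripk1 330 and 984, and whether the counting used strand is not given in the sources used here. Serpinb6b had 11 and 28 reads, a ratio of -0.01 (-1.02 to 1.18), and Serpinb1c had 3 and 7 reads, the lowest total that met the minimum. The sum of the clade had a ratio of -0.06 (-0.28 to 0.16).

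Serpinh1 encodes HSP47, the collagen chaperone of the endoplasmic reticulum, which binds no protease. It had 19 reads in MHs and 1 in SHs, with a ratio of -5.02 (-10.94 to -2.91), the lowest of the family. Of its collagen clients, 7 of 9 had 10 or more reads, and 3 were called lower, namely Col1a2 (13 and 1 reads), Col3a1 (10 and 6 reads) and Col5a1 (13 and 11 reads), while none was called higher. Among all genes with 10 or more reads, 4.46% were called lower and 2% higher. The median of the 7 clients was -1.32. Col18a1, the client with the most reads, went the other way, with 15674 and 45254 reads and a ratio of 0.21 (0.18 to 0.24), and it put the sum of the list at 971 RPM in MHs and 1107 in SHs. Col1a1, the main fibrillar collagen, had only 1 and 6 reads. In clade i, Serpini1 (neuroserpin) had 1 and 2 reads and Serpini2 had none.

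Markers of other liver cells moved in the same direction as Serpinh1. As a background, 4.46% of all genes with 10 or more reads were called lower and 2% higher. Of 12 stellate cell markers, 8 had 10 or more reads and all 8 were called lower. Col1a2 and Col3a1 among them were also counted as collagen clients of HSP47. The summed level of the 12 was 21.5 RPM in MHs and 2.43 in SHs, with none of the 12 at 0 in either library. All 12 endothelial markers were called lower, with a sum of 125.04 RPM in MHs and 5.48 in SHs, and Lyve1 was at 0 in SHs. Of 10 macrophage markers, 8 had 10 or more reads and 7 were called lower, with a sum of 17.9 RPM in MHs and 0.944 in SHs, and Marco was at 0 in SHs. Transcripts of these cell types were thus measurable in MHs at low levels. Their part in the values of Serpinh1, Serpine2 and the clade b genes, which those cells can also express, was not tested. SHs, unlike MHs, had been sorted as cells lacking CD31 and CD45. The genes of these proteins, Pecam1 and Ptprc, had 73 and 9 reads in MHs and 8 and 5 in SHs. The part of this sort in the marker differences was not tested. Fewer cells of a type and less RNA per cell cannot be told apart in these libraries. Cholangiocyte markers had 4 of 9 genes with 10 or more reads, none called. Neutrophil, lymphocyte and mesothelial markers had none with 10 reads, and platelet markers had 2, neither of which was called.

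Over the 36 members with 10 or more reads, 4 were called lower, namely Serpina7, Serpinh1, Serpinb6a and Serpina3j, and 1, Serpinb8, was called higher. Among all 15521 genes with 10 or more reads, 4.46% were called lower and 2% higher. With a total that leaves out the 10 most-read genes, Serpinb6a and Serpina3j were no longer called. All 5 called members had between 14 and 176 reads over both libraries. Of the 24 members with 200 or more reads, none was called either way, whereas 0.812% of all genes with 200 or more reads were called lower and 0.354% higher. Of the 12 members with at least 10 but under 200 reads, 4 were called lower and 1 higher, beside 10.4% and 4.67% of all genes in that range.

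**Figure D4:**
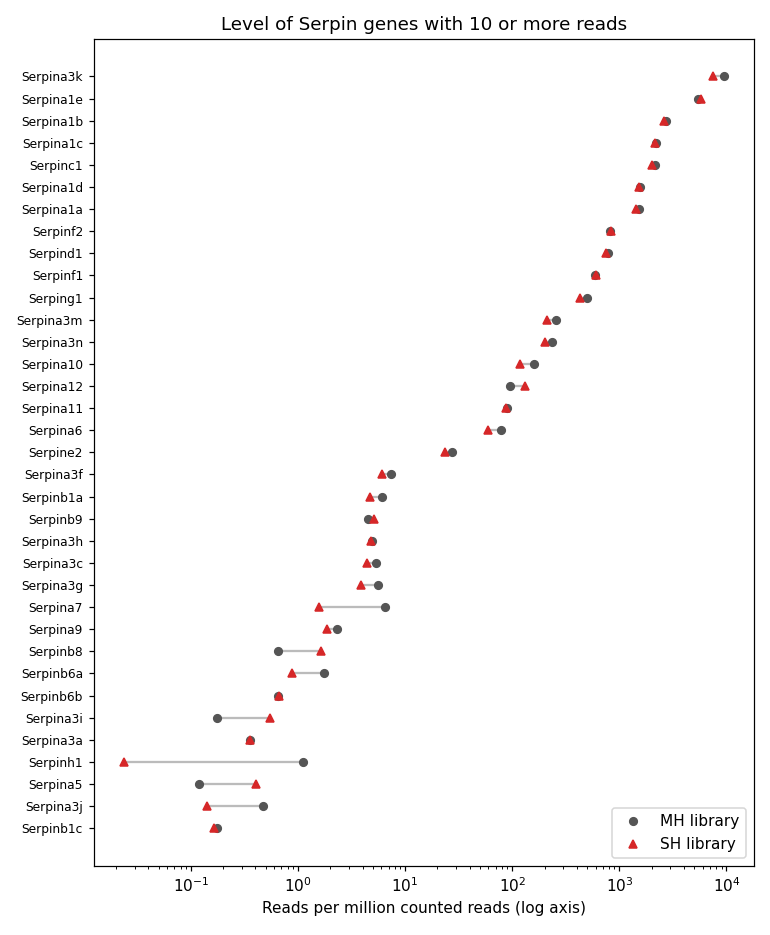
Level of each of 35 of the 36 members with 10 or more reads in the MH library (circles) and the SH library (triangles), in RPM on a log axis, with a line joining both values of a gene. Genes are in the order of their reads, values are not divided by length, and each point is 1 library without an error bar. Symbols overlap for most members above 10 RPM, and the longest lines belong to Serpinh1 (1.12 and 0.0236 RPM) and Serpina7 (6.48 and 1.56 RPM).

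Small differences in 1 direction were frequent. The interval lay under 0 for 19 of the 36 members and above 0 for 5, and it included 0 for 12. Among all genes with 10 or more reads, 15.5% had an interval under 0 and 16.8% above. Members have more reads than most genes, and more reads give narrower intervals. Of the 18 members with 1000 or more reads, 12 had an interval under 0 and 4 above. In all 5055 genes with 1000 or more reads, the shares were 21.1% under and 31.2% above. Beyond this minimum the sets were not matched for reads, and members reached 475991 reads (Serpina3k). The 4 members above 0 were Serpina1e, Serpina12, Serpinf1 and Serpinf2. The ratio itself was under 0 in 28 of the 36 members, beside 48% of all genes with 10 or more reads. The median ratio was -0.15 over the 36 members and -0.10 over the 24 with 200 or more reads, and 0.02 over all genes with 10 or more reads. Members that are copies of each other share reads and are not independent.

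**Figure D5:**
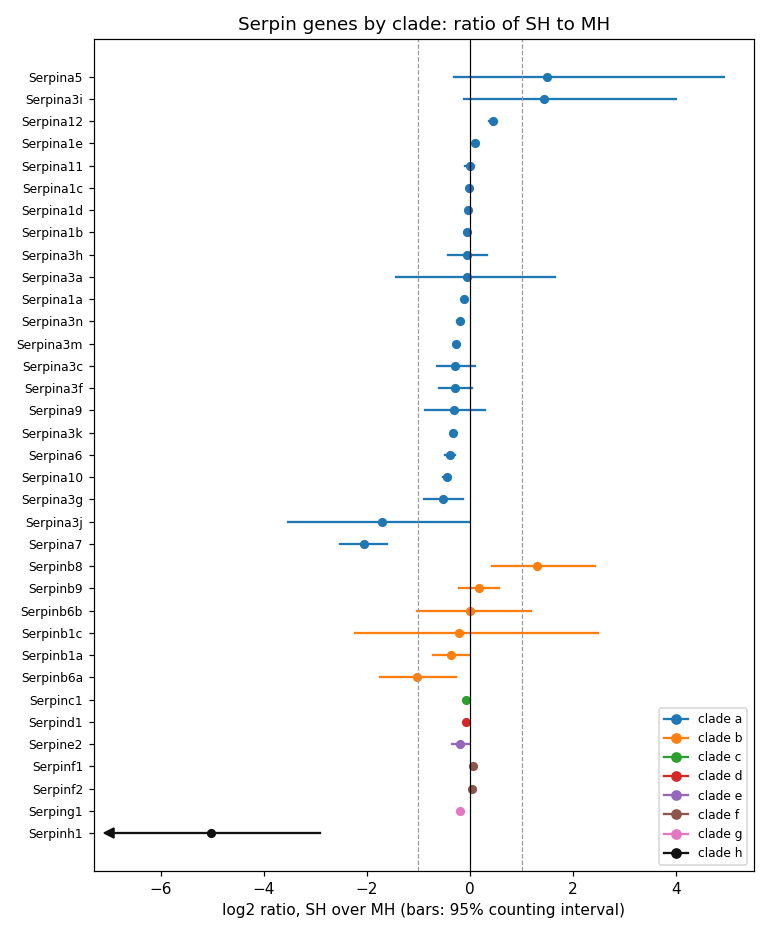
Log2 ratios, SHs over MHs, of 35 of the 36 members with 10 or more reads, grouped and coloured by clade, with bars for the 95% counting interval and dashed lines at a 2-fold difference. The bar of Serpinh1 runs past the left edge, to -10.94. Only Serpina7, Serpinh1, Serpinb6a, Serpina3j and Serpinb8 lie past a dashed line with a bar clear of 0.

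The proteases that serpins hold in check were mostly expressed at like levels in both libraries. Of 34 listed proteases found among the symbols, 23 had 10 or more reads. Of these, 1 was called lower and none higher, 10 had an interval under 0 and 3 above, and the median was -0.04. Among all genes with 10 or more reads, 4.46% were called lower and 2% higher. In the same set, 15.5% had an interval under 0 and 16.8% above. F2, which encodes prothrombin, a target of antithrombin, had a ratio of -0.02 (-0.04 to 0.00). Plg, which encodes plasminogen, a target of antiplasmin, had a ratio of -0.04 (-0.05 to -0.02). Both were close to 0, and other targets of antithrombin are covered only by the counts of the list. Klkb1, which encodes plasma prekallikrein, a target of the C1 inhibitor, had 249 and 376 reads and a ratio of -0.73 (-0.96 to -0.49). The protease called lower was Ctss, a cathepsin of macrophages and other immune cells, with 25 and 6 reads.

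Of 15 cofactors and clearance receptors of serpins, 13 had 10 or more reads, with 1 called lower, none higher and a median of 0.10. Intervals lay above 0 for 7 of them and under 0 for 1, beside 16.8% and 15.5% of all genes with 10 or more reads. Vtn, which encodes vitronectin, an adhesive protein of plasma, had a ratio of 0.05 (0.03 to 0.06), and Lrp1, the receptor that clears serpin complexes, had 0.01 (-0.01 to 0.04). The gene called lower was Thbd, the thrombomodulin of endothelium, with 17 and 1 reads. For the 21 genes of serpin export and disposal in the endoplasmic reticulum, none was called, 11 intervals lay under 0 and 2 above, and the median was -0.09. Of all genes with 1000 or more reads, 21.1% had an interval under 0 and 31.2% above.

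Several Serpina3 genes are acute-phase genes, which rise in inflammation. Over all 15521 genes that met the read minimum, the shares were 4.46% called lower and 2% called higher. Their intervals lay under 0 in 15.5% and above 0 in 16.8%. At 1000 or more reads, these shares were 21.1% and 31.2%. Of 21 acute-phase genes other than serpins, 3 were called lower and none higher. Of the same 21, 16 had an interval under 0 and 5 above, and the median was -0.10. The 3 were serum amyloid genes, Saa1 with 4813 and 5632 reads and a ratio of -1.09 (-1.15 to -1.04), Saa2 with 1345 and 1536 reads and a ratio of -1.13, and Saa3 with 170 and 162 reads and a ratio of -1.39. Serpina3n and Serpina3k, with ratios of -0.20 and -0.33, differed less than these. Of 13 transcription factors and receptors that act on serpin genes in hepatocytes, none was called, with a median of -0.02.

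By their medians, zone markers differed more than the 36 serpins did, whose median was -0.15. All 13 pericentral genes were called lower, with a median of -1.89, among them Cyp2e1, with a ratio of -1.89 (-1.91 to -1.87). Of 15 periportal genes, 14 had an interval above 0 and 1 under, the median was 0.32, and Aldh1b1 was called higher with a ratio of 1.29 (1.22 to 1.37). The part of these zone differences in the serpin values was not tested.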

How the data were processed

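Poly(A) RNA of 1 sample of MHs and 1 of SHs was read on an Ion Proton instrument. The authors deposited whole read counts per gene symbol. Their methods describe alignment to mm10 in CLC Genomics Workbench that capped the hits of each read, and RPKM values. The program, annotation and strand rule behind the counts are not given in the sources used here, so reads of close copies and of overlapping genes are uncertain. The methods and the labels differ in the age of the mice, and the labels' value is given.

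Ratios and intervals were computed with Python 3.11.15 (scipy 1.17.1, pandas 2.3.3, numpy 2.4.6) and tested on simulated data. Depth was 16979136 and 42356444 counted reads. With 3 reads or fewer in a library, the ratio is given with its interval, in place of the bound that had been planned. Lengths, coding sequences and positions came from GENCODE M21 (mm10), matched by symbol for all 62 members. Coding sequences were compared in place of proteins. The loop stretch starts at its threonine-glycine-threonine-glutamate hinge.

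The members and gene lists were chosen with earlier results of these data known. Named members had 200 or more reads, were called, belonged to Serpina1 or Serpina3, or were the 3 nearest on either side of 10 reads. Other named genes were F2, Plg, Klkb1, Vtn, Lrp1, Col1a1 and called genes of the lists. Serpine3, Serpini2, Serpina9, Serpinb6b, Serpinb10, Col18a1, the genes that overlap members and the pseudogenes were added after their values were seen. Alternatives were edgeR 4.0.16 (TMM) and DESeq2 1.42.0 scaling in R 4.3.3, other totals, added reads, minimums and thresholds. The values of 1 member are not reported here, and the figures leave it out.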

Additional observations from a re-analysis of the deposited data

Results flagged for a closer look

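Of 5 serpin symbols with a ps suffix, which the family's rule leaves out, 3 had more than 3 reads in both libraries. Serpina4-ps1 had 2504 reads in MHs and 3877 in SHs, or 147.5 and 91.5 RPM, a log2 ratio of -0.69 (-0.76 to -0.62). Serpina3e-ps had 34 and 99 reads, with a ratio of 0.21 (-0.35 to 0.83). Serpina3l-ps had 15 and 51 reads, with a ratio of 0.41 (-0.41 to 1.38). Both of these intervals included 0, and that of Serpina4-ps1 did not. With 1 library per kind of cell, no sample could be compared with others of its group.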

How the results depend on the processing

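The direction of the family share and of the Serpina1 and Serpina3 sums was the same under every scaling tried, and 1 of the 24 members with an interval clear of 0 changed direction. The family ratio was -0.10 with TMM, -0.10 with DESeq2 size factors, -0.079 with a total that leaves out the 10 most-read genes and -0.015 without Serpina3k. Under the same 3 scalings the Serpina1 sum was 0.019, 0.018 and 0.041, and the Serpina3 sum -0.31, -0.31 and -0.29. With the total lacking the Serpin genes, the Serpina1 sum was 0.0059 (-0.0011 to 0.0129), and its interval then included 0. The member that changed direction was Serpina1d, at 0.0011 (-0.020 to 0.022) with the total lacking the 10 most-read genes, where its interval included 0. With the same total, 2 members were called lower in place of 4. The count called lower was also 2 with at least 50 reads and 2 with a 4-fold threshold, and 0 with at least 200 reads. The count called higher was 0 with at least 200 reads and 0 with a 4-fold threshold. Intervals under 0 numbered 12 in place of 19 with the Serpina1 and Serpina3 genes summed to 1 member each, and 12 without the 12 members that share 100-base windows with another gene, an alternative chosen after seeing the data, both of which leave fewer members. No scaling moved the median of all genes by more than 0.0315. Members with few reads, among them all 5 called ones, are limited by depth. No paired analysis was possible because each kind of cell had 1 library, and no library could be left out.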
